A study of Mus musculus with 16 samples.

Results

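A set of 10 genes of the NF-kB pathway was followed here in epidermal cells of the mouse footpad, 6 hr after an injection of papain or vehicle. They are the IkB family genes Nfkbia, Nfkbie and Nfkbiz, the feedback enzymes Tnfaip3 and Zc3h12a, the subunit genes Nfkb1, Nfkb2 and Relb, the coactivator Bcl3 and the ligand Tnf. They were chosen by name from the 50600 gene identifiers of the count table. Each of the 10 symbols matched 1 identifier, and all 10 passed the minimum of 10 counts in total that left 22155 genes for the tests. In the 16 libraries their counts ran from 152 to 54652. After papain, Bcl3 and Tnf were higher than after vehicle on both diets, and Nfkbie was higher on the AhR-poor diet. Among papain-injected mice, Nfkbie and Tnf were higher in those on the AhR-poor diet.

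All mice were female C57/B6J. From 5 wk of age and for 3 wk they were fed a synthetic diet (labelled SYNTH) that is poor in ligands of the aryl hydrocarbon receptor, called the AhR-poor diet here. On the I3C diet this food carried 200 ppm of indole-3-carbinol, a precursor of such ligands. Footpads received 50 μl of PBS, which was the vehicle, and in the papain groups this volume held 50 μg of the protease, a plant enzyme used as a model allergen. Each of the 4 combinations had 4 libraries (n = 4 throughout), which are named by the codes T100 to T115 of their labels. The epidermis was parted from the dermis with dispase and dead cells were removed, so that each library holds every cell type left in that preparation. Mice on the same diet shared a cage, so diet and cage cannot be told apart.

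NF-kB proteins are dimers that rest in the cytoplasm, held there by inhibitors of the IkB family. Signals such as TNF, interleukin-1 or microbial products activate the IkB kinase (IKK) complex, the inhibitor is destroyed, and the dimer enters the nucleus and binds short DNA elements called kappaB sites. Among the genes it switches on are its own inhibitors, which end the response, and in the skin a tight balance of this circuit is known to matter for inflammation.

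The sequence before the transcription start is where kappaB sites of such feedback genes are commonly described, and the members were therefore searched in the 250 bases before each start in the RefSeq promoter table (GRCm38.p6). Of the 10 members, 7 had an entry, with 10 starts in all, and Nfkbiz, Nfkb1 and Relb had none. On either strand, the letters GGGNNNTTCC occurred in 7 of the 10 windows (4 of 7 members), against 4.65% of all 32851 windows. The kappaB consensus, which overlaps with these letters, occurred in 6 of the 10 windows (4 of 7 members), against 7.25% of all windows. A match describes letters only, not a bound site. Windows with matches are shown for the negative regulators Nfkbia, Nfkbie and Tnfaip3 (for the last only the 137 bases of 1 of its windows that lie outside exons), with a pair of shorter sites of Nfkb2 that lie in an exon of another of its transcripts, and Tnf is shown as a member that changed with papain and holds no such letters in its window. Capitals mark the matches to either motif, on the strand of the gene.
Nfkbia, chr12:55492648-55492897, minus strand: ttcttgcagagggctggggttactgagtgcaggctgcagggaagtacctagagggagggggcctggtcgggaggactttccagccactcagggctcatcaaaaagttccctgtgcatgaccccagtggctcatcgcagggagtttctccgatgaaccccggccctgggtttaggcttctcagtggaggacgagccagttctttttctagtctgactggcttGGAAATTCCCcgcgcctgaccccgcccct
Nfkbie, chr17:45555450-45555699, plus strand: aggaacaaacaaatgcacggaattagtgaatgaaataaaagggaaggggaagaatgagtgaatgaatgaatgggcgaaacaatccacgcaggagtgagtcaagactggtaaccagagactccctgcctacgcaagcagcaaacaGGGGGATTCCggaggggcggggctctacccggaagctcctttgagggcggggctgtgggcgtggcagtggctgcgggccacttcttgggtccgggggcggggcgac
Tnfaip3, chr10:19015411-19015547, minus strand: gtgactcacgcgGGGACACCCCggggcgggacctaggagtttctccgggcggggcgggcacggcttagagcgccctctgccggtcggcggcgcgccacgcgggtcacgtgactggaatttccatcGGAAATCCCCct
Nfkb2, chr19:46304689-46304718, plus strand: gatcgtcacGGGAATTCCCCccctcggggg
Nfkb2, chr19:46305695-46305724, plus strand: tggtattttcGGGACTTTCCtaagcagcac
Tnf, chr17:35202008-35202257, minus strand: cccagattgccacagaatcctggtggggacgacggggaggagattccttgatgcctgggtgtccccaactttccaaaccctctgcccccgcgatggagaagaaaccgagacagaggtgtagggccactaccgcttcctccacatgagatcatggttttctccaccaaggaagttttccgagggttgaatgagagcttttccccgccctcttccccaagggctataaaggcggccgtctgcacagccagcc
The match of Nfkbia ends 20 bases before the start and that of Nfkbie 97 bases before it. The windows of Zc3h12a and Bcl3 held none of these letters either.

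Library totals ran from 22500821 to 51844375 counts, and values are given as CPM, counts relative to the library total after TMM scaling. A gene counts as called where the quasi-likelihood F test of edgeR gave an adjusted p (Benjamini-Hochberg, all 22155 genes) under 0.01 together with a log2 fold change beyond 1 in size. The log2 CPM of the members were also compared by exact permutation (two-sided), which for 4 against 4 libraries cannot go below p = 0.0286. Some libraries stood apart for these genes. In the I3C vehicle group T108 was the highest library for 10 of the 10 members, against 30.2% of the 13026 genes with a mean of at least 1 CPM. T100 was the highest of the AhR-poor vehicle group for 8 members (26.2% of those genes). The lowest library was T101 for 8 members in the AhR-poor vehicle group (17.4% of those genes), T111 for 7 in the I3C vehicle group (36.6%) and T112 for 9 in the AhR-poor papain group (22.9%). The 10 keratinocyte markers summed to 63807 to 83126 CPM with vehicle and 45446 to 67547 CPM with papain on the AhR-poor diet, and to 67408 to 78791 CPM and 56939 to 69642 CPM on the I3C diet. Markers of blood-borne cells moved with the groups. The 10 markers of monocytes and macrophages summed to 20.4 to 31.0 CPM with vehicle and 105.9 to 543 CPM with papain on the AhR-poor diet, and to 7.35 to 9.94 CPM and 7.88 to 26.0 CPM on the I3C diet. The 10 neutrophil markers summed to 4.51 to 5.64 CPM and 93.8 to 666 CPM on the AhR-poor diet, and to 0.861 to 1.92 CPM and 44.8 to 75.01 CPM on the I3C diet. In bulk RNA, a change in the number of cells of a type and a change in the RNA of each cell cannot be told apart, and the part of these cells in the results below was not tested.

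**Figure D1:**
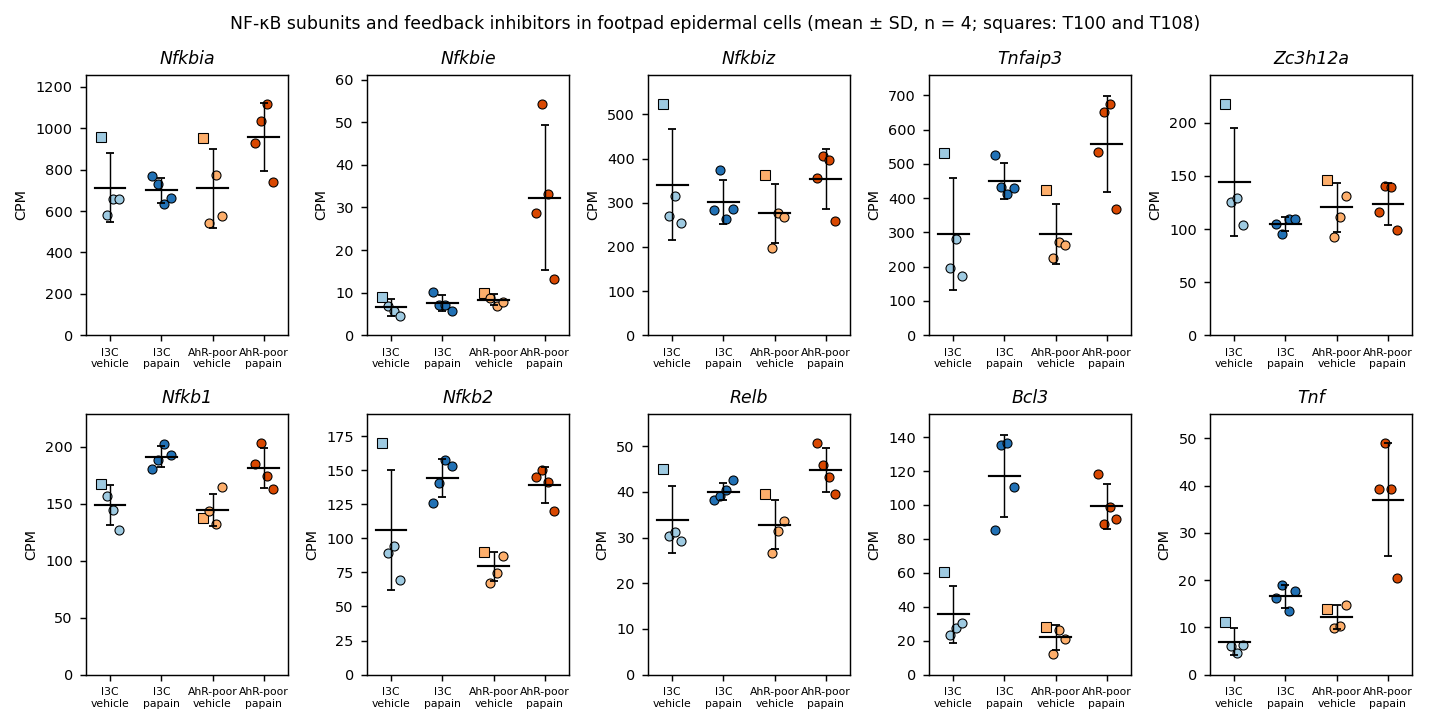
CPM of the 10 members in each of the 16 libraries by group (points), with the mean as a line and the SD as a bar (n = 4). Squares are T100 and T108, the highest libraries of their vehicle groups for 8 and for all 10 members. The 4 AhR-poor papain libraries of Nfkbie lie at 13.2 CPM and above, and the other 12 at 10.2 CPM and below.

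The exon length used here joins all annotated exons of a gene, with 1610 bases for Nfkbia and 12061 bases for Nfkb1. It is not that of 1 transcript, so the order of the members depends on the annotation. Relative to this length, Nfkbia was the most abundant member in every group, with group means of 435 to 594 CPM per kb, and no library of the next gene reached its values. Nfkbiz, Tnfaip3 and Zc3h12a followed at 36.4 to 77.2 CPM per kb, except that Bcl3 came before Zc3h12a in I3C papain mice. Nfkbie had the lowest mean in every group, at 2.14 to 10.6 CPM per kb. In AhR-poor vehicle mice, the neighbours in the order Nfkbiz, Zc3h12a and Tnfaip3 (55.0, 41.8 and 40.9 CPM per kb) overlapped, as did Nfkb1, Bcl3, Relb and Tnf (12.0, 8.85, 8.44 and 7.42 CPM per kb), with Nfkb2 between these sets at 17.4 CPM per kb and overlapping with neither. Bcl3 moved in this order with papain, from the seventh place in AhR-poor vehicle mice to the fifth in AhR-poor papain mice (40.1 CPM per kb), where it overlapped with Zc3h12a (42.9 CPM per kb) and not with Nfkb2 (30.4 CPM per kb). In I3C papain mice Bcl3 was in the fourth place at 47.3 CPM per kb, overlapping with Nfkbiz (60.2) and Zc3h12a (36.4 CPM per kb).

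Nfkbia (chr12:55489410-55492647, minus strand of GRCm38, as for all gene positions here) encodes the inhibitor that is destroyed and resynthesized in each round of activation. In AhR-poor vehicle mice it measured 951, 542, 775 and 575 CPM, and in AhR-poor papain mice 927, 1037, 1120 and 740 CPM. In I3C vehicle mice it measured 956, 582, 657 and 657 CPM, and in I3C papain mice 772, 729, 637 and 661 CPM. The groups overlapped in each comparison, and T100 and T108 were the highest vehicle libraries of their diets. The log2 fold change with papain was 0.43 on the AhR-poor diet (SE 0.18, 95% interval 0.04 to 0.82, adjusted p = 0.088) and -0.03 on the I3C diet (SE 0.18, -0.42 to 0.36, adjusted p = 0.936), and in papain-injected mice it was 0.45 for AhR-poor over I3C (SE 0.18, adjusted p = 0.0993). Without T108 the I3C value turned to 0.15.

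Nfkbie (chr17:45555703-45563169, plus strand) encodes IkB epsilon, another inhibitor whose gene is itself switched on by NF-kB. It measured 9.86, 8.68, 6.85 and 7.91 CPM in AhR-poor vehicle mice and 28.6, 54.4, 33.1 and 13.2 CPM in AhR-poor papain mice. It measured 9.02, 6.81, 5.71 and 4.56 CPM in I3C vehicle mice and 10.2, 7.18, 6.99 and 5.74 CPM in I3C papain mice. The 4 AhR-poor papain libraries were above all the others, with T112 the lowest of them, and the remaining 3 groups overlapped. Papain raised Nfkbie 3.89-fold on the AhR-poor diet (log2 fold change 1.96, SE 0.34, adjusted p = 0.000442, exact permutation p = 0.0286). On the I3C diet the log2 fold change was 0.21 (SE 0.34, 95% interval -0.53 to 0.94, adjusted p = 0.695). This value includes T108 (9.02 CPM) and T106 (10.2 CPM), the highest libraries of the I3C vehicle and I3C papain groups. In papain-injected mice the AhR-poor group exceeded the I3C group 4.29-fold (log2 fold change 2.10, SE 0.34, adjusted p = 0.000553), a call that was lost when only these 8 libraries were fitted (adjusted p = 0.0113). The difference between the 2 papain responses, the interaction, was 1.75 on the log2 scale (SE 0.48, 95% interval 0.72 to 2.78). After adjustment over all genes it did not pass in edgeR (adjusted p = 0.146), while it passed in DESeq2 (1.76, adjusted p = 0.00418) and in edgeR without T112 (2.01, adjusted p = 0.00783).

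Nfkbiz (chr16:55811375-55838899, minus strand) encodes IkB zeta, a nuclear member of the family that acts as a coactivator of selected target genes and is strongly inducible in keratinocytes. It measured 363, 198, 276 and 267 CPM in AhR-poor vehicle mice and 356, 406, 396 and 259 CPM in AhR-poor papain mice. It measured 525, 270.0, 316 and 254 CPM in I3C vehicle mice and 283, 375, 264 and 286 CPM in I3C papain mice. The highest single value was that of T108, and all groups overlapped. The log2 fold change with papain was 0.36 on the AhR-poor diet (SE 0.23, 95% interval -0.14 to 0.86) and -0.18 on the I3C diet (SE 0.23, -0.68 to 0.33), and the latter turned to 0.11 without T108.

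Tnfaip3 (chr10:19000910-19015657, minus strand) encodes a ubiquitin-editing enzyme that shuts off signaling upstream of IKK. It measured 424, 224, 271 and 262 CPM in AhR-poor vehicle mice and 535, 651, 676 and 369 CPM in AhR-poor papain mice. It measured 531, 196, 282 and 173 CPM in I3C vehicle mice and 526, 433, 411 and 429.8 CPM in I3C papain mice. On the AhR-poor diet T100 was above the lowest papain library, on the I3C diet T108 was above all 4 papain libraries, and the other vehicle libraries lay below the papain group of their diet. The log2 fold change with papain was 0.92 on the AhR-poor diet (SE 0.32, 95% interval 0.22 to 1.61, adjusted p = 0.042) and 0.61 on the I3C diet (SE 0.32, -0.08 to 1.30, adjusted p = 0.167), and neither was called. The I3C value depended on T108, without which it was 1.05 and called (adjusted p = 0.00437). With T100 and T108 both left out, a choice made after these values were seen, Tnfaip3 was called with papain on both diets (1.15 and 1.05, adjusted p = 0.000773 and 0.00129).

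Zc3h12a (chr4:125118423-125127840, minus strand) encodes an RNase that degrades mRNAs of inflammatory cytokines. It measured 147, 92.8, 111.4 and 131 CPM in AhR-poor vehicle mice and 116, 140.4, 139 and 98.7 CPM in AhR-poor papain mice. It measured 218, 125, 129 and 103.7 CPM in I3C vehicle mice and 104.7, 95.7, 108.98 and 109.9 CPM in I3C papain mice. The groups overlapped on each diet. The log2 fold change with papain was 0.04 on the AhR-poor diet (SE 0.20, 95% interval -0.38 to 0.46). On the I3C diet it was -0.46 (SE 0.20, -0.88 to -0.04, adjusted p = 0.088), which shrank to -0.19 without T108.

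Nfkb1 (chr3:135584655-135691547, minus strand) and Nfkb2 (chr19:46304320-46312385, plus strand) encode precursors that carry an inhibitory segment of their own and are processed to DNA-binding subunits, in the canonical and the noncanonical branch of the pathway. Nfkb1 measured 137, 143, 133 and 164 CPM in AhR-poor vehicle mice and 185, 203, 174 and 163 CPM in AhR-poor papain mice. It measured 167, 157, 145 and 126 CPM in I3C vehicle mice and 181, 189, 203 and 192 CPM in I3C papain mice. Its papain and vehicle libraries did not overlap on the I3C diet, and on the AhR-poor diet they did by a single pair. The change with papain was small on both diets, 1.26-fold on the AhR-poor diet (log2 fold change 0.33, SE 0.09, adjusted p = 0.00893) and 1.28-fold on the I3C diet (0.36, SE 0.09, adjusted p = 0.00407). The interaction was -0.03 (SE 0.13, 95% interval -0.30 to 0.24). These values met the adjusted p and not the minimum fold change, and the adjusted p rose above 0.01 on the AhR-poor diet when any of 6 libraries was removed (T100, T101, T102, T104, T105 or T107, at most 0.0341) and on the I3C diet when any of 3 was (T110, T111 or T114, at most 0.0128).

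Nfkb2 measured 90.0, 67.0, 74.5 and 86.8 CPM in AhR-poor vehicle mice and 145, 151, 142 and 119.9 CPM in AhR-poor papain mice. It measured 170.3, 89.5, 94.7 and 69.5 CPM in I3C vehicle mice and 126, 141, 158 and 153 CPM in I3C papain mice. All AhR-poor papain libraries were above all AhR-poor vehicle libraries, while on the I3C diet T108 was above every papain library. The fold with papain was 1.75 on the AhR-poor diet (log2 fold change 0.81, SE 0.21, adjusted p = 0.00697), with an adjusted p of up to 0.0233 when T101, T102, T103, T104, T105 or T107 was left out. On the I3C diet the log2 fold change was 0.45 (SE 0.21, adjusted p = 0.108), and without T108 it was 0.77 (adjusted p = 7.95e-05). Exons of Nfkb2 share 531 bases with AC114539.1 and 299 bases with Psd on the opposite strand, and whether the counting used the strand is not given in the sources used here, so reads of these genes may be mixed.

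Relb (chr7:19606217-19629438, minus strand) encodes the subunit that pairs with the Nfkb2 product. It measured 39.5, 26.6, 31.5 and 33.6 CPM in AhR-poor vehicle mice and 50.7, 45.8, 43.2 and 39.4 CPM in AhR-poor papain mice. It measured 44.9, 30.2, 31.3 and 29.2 CPM in I3C vehicle mice and 38.2, 39.0, 40.5 and 42.6 CPM in I3C papain mice. T100 came just above the lowest papain library of its diet, and T108 was above all the papain libraries of its own. The log2 fold change with papain was 0.45 on the AhR-poor diet (SE 0.13, 95% interval 0.18 to 0.72, adjusted p = 0.012) and 0.24 on the I3C diet (SE 0.13, -0.03 to 0.51, adjusted p = 0.168). Without T108 the I3C value was 0.41 (adjusted p = 0.00719).

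Bcl3 (chr7:19808462-19822770, minus strand) encodes a nuclear IkB-like protein that partners with subunits lacking an activation domain of their own. It measured 28.3, 12.2, 26.1 and 21.1 CPM in AhR-poor vehicle mice and 118, 88.5, 98.8 and 91.7 CPM in AhR-poor papain mice. It measured 60.5, 23.5, 27.6 and 30.6 CPM in I3C vehicle mice and 85.4, 136, 137 and 110.3 CPM in I3C papain mice. Every papain library was above every vehicle library, T108 included. Papain raised Bcl3 4.53-fold on the AhR-poor diet (21.9 ± 7.15 to 99.3 ± 13.3 CPM, log2 fold change 2.18, SE 0.31, adjusted p = 9.75e-05) and 3.29-fold on the I3C diet (35.6 ± 16.9 to 117 ± 24.3 CPM, 1.72, SE 0.30, adjusted p = 0.000484), each with an exact permutation p of 0.0286. Both calls held without any 1 of the 16 libraries. The diets differed by -0.70 with vehicle (SE 0.30, 95% interval -1.35 to -0.05, adjusted p = 0.35) and by -0.24 with papain (SE 0.29, -0.87 to 0.40, adjusted p = 0.645), AhR-poor minus I3C, and the vehicle value shrank to -0.31 without T108. Exons of Bcl3 share 161 bases with Gm16175 on the opposite strand.

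Tnf (chr17:35199381-35202007, minus strand) encodes the cytokine that is both an activator of the pathway and one of its target genes. It measured 13.8, 9.80, 10.3 and 14.7 CPM in AhR-poor vehicle mice and 39.3, 49.1, 39.3 and 20.4 CPM in AhR-poor papain mice. It measured 11.1, 5.99, 4.57 and 6.21 CPM in I3C vehicle mice and 16.2, 18.9, 13.4 and 17.6 CPM in I3C papain mice. Papain and vehicle libraries did not overlap on either diet, and each AhR-poor papain library was above each I3C papain library. Papain raised Tnf 3.05-fold on the AhR-poor diet (log2 fold change 1.61, SE 0.28, adjusted p = 0.000361) and 2.37-fold on the I3C diet (1.25, SE 0.28, adjusted p = 0.00268). The I3C call was lost without T109 (1.18) or T111 (1.21), each with an adjusted p of 0.0103. In papain-injected mice Tnf was 2.24-fold higher on the AhR-poor diet (log2 fold change 1.16, SE 0.27, adjusted p = 0.00718, exact permutation p = 0.0286). This call was lost without T104, T105, T106, T107, T113, T114 or T115, where the log2 fold change was 0.98 to 1.24 and the adjusted p 0.0135 to 0.0258, and also when only the 8 papain libraries were fitted (adjusted p = 0.0121) or genes with a single count were tested too (adjusted p = 0.0153). With vehicle the difference between the diets was 0.80 (SE 0.28, 95% interval 0.20 to 1.40, adjusted p = 0.196), and the interaction was 0.36 (SE 0.39, -0.47 to 1.19). Both values include T108, which at 11.1 CPM was well above the 4.57 to 6.21 CPM of the other I3C vehicle libraries.

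**Figure D2:**
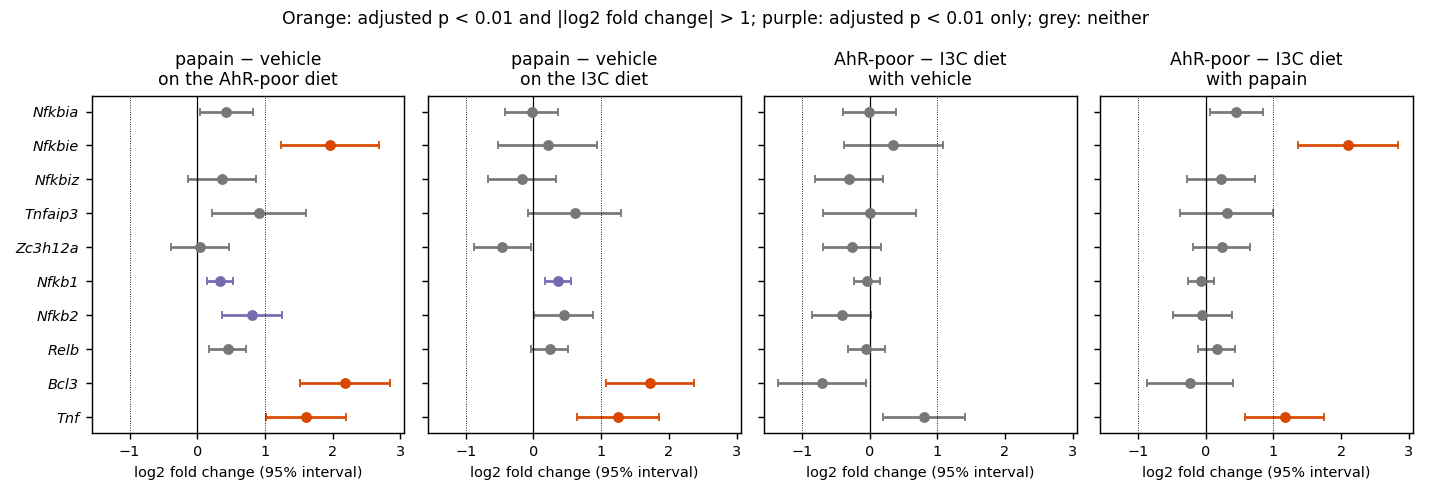
Log2 fold change of each member with its 95% interval from edgeR in the 4 comparisons between groups. Orange points were called, purple points met the adjusted p alone, and grey points met neither. Bcl3 and Tnf are orange in both papain panels, and Nfkbie is orange in the AhR-poor papain panel and in the diet panel with papain.

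The response to papain on the AhR-poor diet counted 3 of the 10 members as higher (Nfkbie, Bcl3 and Tnf) and none as lower, where 6.04% of all genes were called higher and 2.42% lower. The adjusted p alone added Nfkb1 and Nfkb2, for 5 of 10 higher and none lower, against 12.4% and 10.1% of all genes. All 10 estimates were above 0, and 8 members were higher and none lower at an unadjusted p below 0.05, against 21.6% and 20.3% of all genes. The 4 papain libraries were all above the 4 vehicle libraries for 4 members, against 17% of all genes, and all below for none, against 16%. The median log2 fold change of the members was 0.63, and that of all genes was -0.00. DESeq2 also called 3 members, and the share of all genes that DESeq2 called is not given here or in the comparisons below.

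On the I3C diet 2 of the 10 members, Bcl3 and Tnf, were called higher with papain and none lower, where 3.69% of all genes were called higher and 5.29% lower. With no minimum fold change Nfkb1 joined them, for 3 of 10 higher and none lower, against 12.7% and 12.9% of all genes. Of the 10 estimates 7 were above 0, and at an unadjusted p below 0.05 there were 4 members higher and 1 lower (Zc3h12a), against 20.4% and 22.9% of all genes. The papain libraries were all above the vehicle libraries for 3 members, against 16.2% of all genes, and all below for none, against 17.3%. The median log2 fold change was 0.30 for the members and -0.04 for all genes. DESeq2 called 2 members.

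Between the diets no member was called with vehicle in edgeR, where 1.59% of all genes were higher with the AhR-poor diet and 0% were lower, and without the minimum fold change these shares were 1.72% and 0%, again with no member. At an unadjusted p below 0.05 there was 1 member higher (Tnf) and 1 lower (Bcl3), against 8.94% and 3.54% of all genes, and DESeq2 called 0 members as well. No member was without overlap between the vehicle groups, against 6.45% of all genes higher and 1.67% lower. With papain, 2 of the 10 members, Nfkbie and Tnf, were called higher on the AhR-poor diet and none lower, where 7.15% of all genes were called higher and 0.0993% lower. Without the minimum fold change the same 2 members were called, against 8.13% of all genes higher and 3.07% lower, and at an unadjusted p below 0.05 there were 3 members higher and none lower, against 17.5% and 14.5%. The papain groups did not overlap for these 2 members, against 12.5% of all genes higher without overlap and 12.3% lower. The median log2 fold change was 0.23 for the members and 0.01 for all genes. No member was called for the interaction in edgeR with or without the minimum fold change, where 0.0181% of all genes were called above 0 and 0% below. Nfkbie was the 1 member with an unadjusted p below 0.05, against 7.41% of all genes above 0 and 6.07% below, and it was the 1 member called by DESeq2. The 4 comparisons between groups share libraries in pairs, so that the high AhR-poor papain values of Nfkbie and Tnf enter both the papain and the diet comparison.

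The spread of the members within the groups was compared from library to library. After each group's mean was removed, all 45 pairs of members had a correlation above 0 over the 16 libraries (r = 0.04 to 0.93, median 0.69), and 13 pairs were above 0.8. The pair of Zc3h12a and Nfkb2 had the highest value (0.93), and that of Nfkbia and Nfkb1 the lowest. Without T108, a choice made after seeing the data, 42 pairs were above 0 and 5 above 0.8 (r = -0.25 to 0.84, median 0.53), and without T108 and T112 these were 39 and 1 (r = -0.57 to 0.80, median 0.35). Pairs of other genes were not computed, so nothing particular to the members is shown. The points share their libraries, of which T108 lies high and T112 low for nearly all members, and the values are descriptions. T108 exceeded the mean of the other 3 libraries of its group 2.45-fold for Tnfaip3, 2.22-fold for Bcl3, 2.01-fold for Nfkb2, 1.99-fold for Tnf and 1.17-fold for Nfkb1. The cause of its position was not tested. Its sums of monocyte and macrophage markers (9.22 CPM) and of neutrophil markers (0.861 CPM) lay within and below those of the other I3C vehicle libraries, which were 7.35 to 9.94 CPM and 0.918 to 1.92 CPM. T108 had the highest sums of this group for Langerhans cells (1289 CPM, next 1288), T cells (121.5, next 119.9) and dermal fibroblasts (102.3, next 99.2). It had the lowest for keratinocytes (67408 CPM, next 73732) and endothelial cells (0.948, next 1.95), and lay within the group for mast cells (1.75 CPM).

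**Figure D3:**
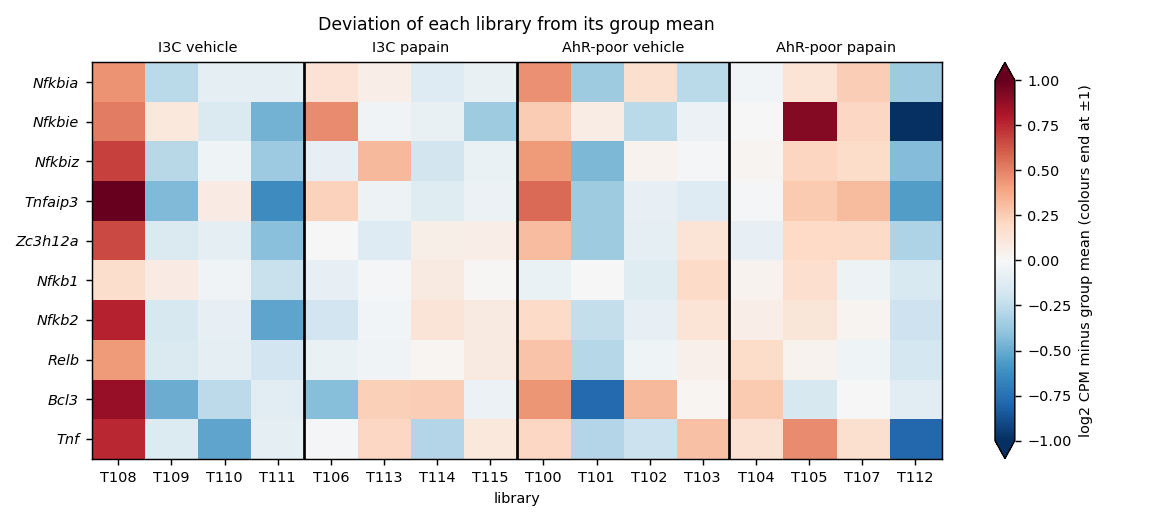
Log2 CPM of each member in each of the 16 libraries minus the mean of its group, with colours that end at 1 above and below 0. The T108 column is positive for all 10 members, and the T112 column is negative for 10.

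The member levels were set beside the markers of the other cell types that the preparation can hold. Across the 16 libraries, Nfkbie followed the summed markers of monocytes and macrophages (r = 0.96, and 0.84 with group means removed), of mast cells (0.96 and 0.84) and of dermal fibroblasts (0.92 and 0.80). Tnf followed the neutrophil markers across the libraries (r = 0.91), with a weaker relation within groups (0.42). It followed the dermal fibroblast markers as well (r = 0.92, and 0.76 within groups). For Tnf these values were 0.86 and 0.57 with monocyte and macrophage markers, and 0.87 and 0.54 with mast cell markers. Bcl3 had r = 0.76 with the neutrophil markers across the libraries and -0.03 within groups. The points share their groups and their libraries, and these values are descriptions. The library T112, lowest for Nfkbie and Tnf in the AhR-poor papain group, also had the lowest sums of that group for monocyte and macrophage (105.9 CPM) and neutrophil markers (93.8 CPM). Of the monocyte and macrophage markers 9 of 10 were called higher with papain on the AhR-poor diet, 2 of 10 on the I3C diet and 10 of 10 in AhR-poor over I3C papain mice. In AhR-poor over I3C vehicle mice 4 of 10 were called higher. Of the neutrophil markers these counts were 9, 3, 6 and 0 of 10. S100a8 and S100a9 of the neutrophil list are also made by inflamed keratinocytes, and the other 8 summed to 2.51 to 2.92 CPM with vehicle and 50.7 to 291 CPM with papain on the AhR-poor diet, and to 0.517 to 0.979 CPM and 20.5 to 29.6 CPM on the I3C diet. Ly6g, a defining neutrophil marker, had no count in either vehicle group or in I3C papain mice. Of the dermal fibroblast markers 9 of 10 were also higher with papain on the AhR-poor diet, where they summed to 433 to 801 CPM, and mast cell markers summed to 33.4 to 273 CPM there and to at most 9.43 CPM in the other groups. Between the diets 8 of 10 fibroblast markers and 8 of 8 endothelial markers were called higher on the AhR-poor diet, with vehicle and with papain. With papain the fibroblast markers summed to 155 to 166 CPM on the I3C diet, and the endothelial markers to 24.7 to 60.6 CPM on the AhR-poor and 1.08 to 2.58 CPM on the I3C diet. The summed T cell markers did not overlap between vehicle and papain on either diet, at 90.1 to 123 and 195.5 to 259 CPM on the AhR-poor and 92.9 to 121 and 177 to 207 CPM on the I3C diet, with 1 and 0 of 10 called higher. Their sum had r = 0.85 with Bcl3 and 0.83 with Tnf across the libraries, and 0.20 and 0.32 within groups. Thy1 is in both the T cell list and the dermal fibroblast list. Its share of these sums is not given here, so neither sum can be read as that of a single cell type. Langerhans cell markers summed to 1502 to 1777 CPM in AhR-poor papain and 1043 to 1404 CPM in I3C papain mice, where 3 of 10 were called higher on the AhR-poor diet. With vehicle they also did not overlap, at 1404 to 1613 CPM on the AhR-poor and 992 to 1289 CPM on the I3C diet, with 0 of 10 called. The part of these cells in the values of Nfkbie, Tnf and Bcl3 was not tested.

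**Figure D4:**
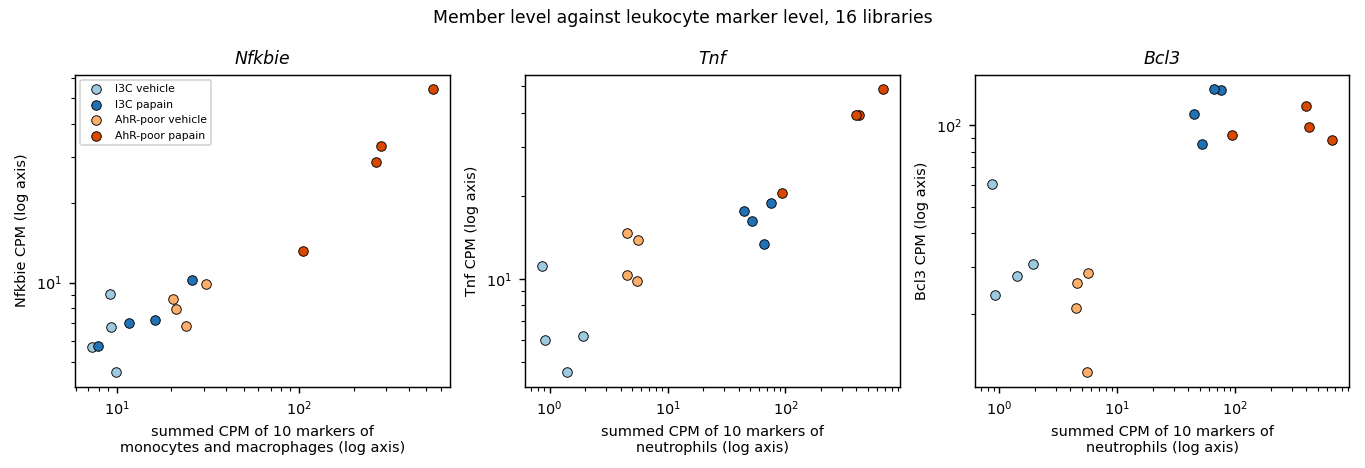
CPM of Nfkbie against the summed CPM of 10 markers of monocytes and macrophages, and of Tnf and Bcl3 against that of 10 markers of neutrophils, 1 point per library and both axes logarithmic. Nfkbie followed the monocyte and macrophage sum (r = 0.96 over 16 libraries), while Bcl3 spanned 85.4 to 137 CPM in I3C papain and 88.5 to 118 CPM in AhR-poor papain mice, whose neutrophil sums did not overlap.

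The rest of the pathway was counted over 84 further genes in 5 lists, all of which were tested. On the AhR-poor diet papain raised 20 of the 84 and lowered 0, against 6.04% and 2.42% of all genes. It raised 10 and lowered 2 on the I3C diet, against 3.69% and 5.29%. Between the diets 1 was higher on the AhR-poor diet with vehicle, against 1.59% of all genes, and 20 with papain, against 7.15%, and 0 were lower, against 0% and 0.0993%. The interaction called 0 in edgeR, against 0.0181% of all genes above 0 and 0% below, and 4 in DESeq2, whose share of all genes is not given here. With 1 library left out, the 10 fell to 5 (without T109) or 6 (without T106 or T110), the 1 rose to 3 (without T111 or T112, and to 5 in DESeq2) and the 20 with papain between the diets fell to 13 (without T105, T114 or T115). Target genes made up most of the calls. Of the 24 target genes, 15 rose with papain on the AhR-poor diet (median log2 fold change 1.70) and 5 rose on the I3C diet, with 1 lower (median 0.31), and 12 were higher in AhR-poor than in I3C papain mice (median 1.22). The medians of all genes in these 3 comparisons were -0.00, -0.04 and 0.01. No other list had more than 4 genes called in a comparison.

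Among the other subunits and IkB proteins, Rela and Rel, subunits with activation domains, showed 0.05 and 0.06 as log2 fold changes after papain on the AhR-poor diet and -0.28 and -0.25 on the I3C diet, none of them called. Nfkbid, a further nuclear IkB protein, measured 41.0 ± 15.3 CPM in AhR-poor papain and 19.1 ± 1.55 CPM in I3C papain mice and was higher on the AhR-poor diet (log2 fold change 1.10, SE 0.24, adjusted p = 0.00429). This call was lost without T105, T107, T113, T114 or T115 (adjusted p of up to 0.0163) and when only the papain libraries were fitted (adjusted p = 0.0217). With papain Nfkbid had 0.99 on the AhR-poor diet (SE 0.24, adjusted p = 0.00451), just below the minimum fold, and 0.05 on the I3C diet (SE 0.24, adjusted p = 0.905).

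No gene of the IKK complex itself was called. Ikbkb, its kinase of the canonical branch, showed log2 fold changes of 0.05 and 0.18 after papain on the AhR-poor and the I3C diet, and Ikbkg, its regulatory subunit, of -0.22 and -0.02. Chuk, the other kinase, had 0.17 and 0.39, and the latter met the adjusted p (2.66e-05) and not the minimum fold. Between the diets with papain, Chuk (-0.25, adjusted p = 0.00472) and Ikbkg (-0.29, adjusted p = 0.00874) were lower on the AhR-poor diet by the adjusted p and missed the minimum fold. Map3k14, the kinase that starts the noncanonical branch, had 0.33 and 0.42. Of the 29 genes of this list, papain raised Traf1 and Card14 on the AhR-poor diet and Irak4 and Card14 on the I3C diet. None fell. Each of these counts is 2 of 29, where papain raised 6.04% of all genes with the first diet and 3.69% with the second. The shares of all genes that fell were 2.42% and 5.29%. In AhR-poor over I3C papain mice 2 of the 29 were called higher and 0 lower, against 7.15% and 0.0993% of all genes. Whether the list differs from all genes was not tested. Card14, a scaffold protein of keratinocytes that activates NF-kB, went from 25.1 ± 4.79 to 64.3 ± 12.6 CPM on the AhR-poor diet (log2 fold change 1.36, SE 0.20, adjusted p = 8.38e-05) and from 21.4 ± 4.53 to 105.9 ± 25.5 CPM on the I3C diet (2.30, SE 0.20, adjusted p = 4.49e-07). Traf1, an adaptor that is also an NF-kB target, went from 2.11 ± 0.638 to 18.6 ± 9.82 CPM on the AhR-poor diet (3.14, SE 0.40, adjusted p = 2.66e-05) and was higher there than in I3C papain mice (2.44, SE 0.39, adjusted p = 0.000371). With papain on the I3C diet its 3.41 ± 1.41 CPM against 1.22 ± 0.420 CPM with vehicle gave 1.48 (SE 0.42, adjusted p = 0.0118). Irak4, a kinase of interleukin-1 and Toll-like receptors, rose on the I3C diet (1.12, adjusted p = 5.79e-08), and on the AhR-poor diet its 0.82 (adjusted p = 4.11e-06) missed the minimum fold. Card9, an adaptor of myeloid cells, was higher on the AhR-poor diet with papain (1.06, adjusted p = 0.00809), a call lost on removal of any of 12 libraries, which were T100, T101, T102, T103, T104, T105, T107, T109, T112, T113, T114 and T115 (adjusted p of up to 0.0353).

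Among the other negative regulators, Tnip1, a partner of the Tnfaip3 product, differed between papain and vehicle by log2 values of 0.58 (adjusted p = 0.00193) and 0.32 (0.0655) on the AhR-poor and the I3C diet. Birc3, a ubiquitin ligase of TNF receptor complexes, had 0.79 (adjusted p = 0.00188) and 0.31 (0.176). Tnip3, at a mean of 0.875 CPM, was called higher with papain on the AhR-poor diet (2.63, adjusted p = 2.37e-05) and on the I3C diet (1.57, adjusted p = 0.00448). It was also called higher in AhR-poor than in I3C papain mice (1.40, adjusted p = 0.00652). How its calls depend on single libraries is not given here. Zfp36, which destabilizes cytokine mRNAs, fell with papain on the I3C diet from 3133 ± 864 to 1492 ± 148 CPM (log2 fold change -1.07, SE 0.21, adjusted p = 0.000702), where T108 was again the highest vehicle library at 4348 CPM. Without T108 its value was -0.87 and missed the minimum fold (adjusted p = 0.00192). On the AhR-poor diet Zfp36 was at 2372 ± 743 CPM with vehicle and 1638 ± 213 CPM with papain (-0.53, SE 0.21, adjusted p = 0.057). Its interaction was 0.54 (SE 0.29, adjusted p = 0.439).

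Of the 12 ligands and receptors of the TNF family, Tnfrsf1a, the TNF receptor of most cell types, showed log2 fold changes of 0.55 and 0.61 after papain on the 2 diets (adjusted p = 3.15e-06 and 5.63e-07), below the minimum fold. Tnfrsf1b, the TNF receptor found mostly on leukocytes and endothelium, went from 12.9 ± 1.67 to 77.1 ± 48.5 CPM on the AhR-poor diet (2.58, SE 0.40, adjusted p = 0.000214), and was higher there than in I3C papain mice (2.65, SE 0.40, adjusted p = 0.000384), a call lost when only the papain libraries were fitted (adjusted p = 0.0132). Ltbr, the lymphotoxin beta receptor, rose on the I3C diet (1.11, SE 0.08, adjusted p = 1.2e-08) and had 0.91 on the AhR-poor diet (SE 0.08, adjusted p = 2.1e-07). Cd40 was at 1.61 ± 0.405 CPM with papain and 0.641 ± 0.301 CPM with vehicle on the I3C diet (1.32, SE 0.34, adjusted p = 0.00496), a call lost without T106, T108, T109, T110, T113 or T114 (adjusted p of up to 0.0203), with T100 and T108 both left out (0.0193) and when only the I3C libraries were fitted (0.0108). With papain and vehicle on the AhR-poor diet it was at 3.62 ± 0.845 and 1.88 ± 0.786 CPM (0.94, SE 0.31, adjusted p = 0.0246), and the diets differed by 1.55 with vehicle (adjusted p = 0.0128) and 1.17 with papain (adjusted p = 0.0119), AhR-poor minus I3C.

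Of the target genes, Lcn2, an antimicrobial protein made by keratinocytes among other cells, rose on both diets, to 102.2 ± 8.12 CPM on the AhR-poor diet (log2 fold change 5.33, SE 0.28, adjusted p = 9.17e-09) and 89.7 ± 19.8 CPM on the I3C diet (5.88, SE 0.29, adjusted p = 2.89e-09). Il1b, an inflammatory cytokine, measured 223, 431, 219.9 and 59.7 CPM in AhR-poor papain mice and 2.57 ± 0.557 CPM with vehicle (6.50, SE 0.74, adjusted p = 2.01e-05). In I3C papain mice it measured 15.0, 4.68, 2.94 and 2.01 CPM (4.04 against vehicle, SE 0.93, adjusted p = 0.00381), a call lost without T106, T108, T109 or T110 (adjusted p of up to 0.0158) and with T100 and T108 both left out (0.0245). Csf3, a growth factor of neutrophils, rose on the AhR-poor diet to 4.49 ± 2.72 CPM (3.88, SE 0.47, adjusted p = 6.14e-06) and was 0.108 ± 0.0121 CPM in I3C papain mice. Saa3, an acute phase protein, rose to 4.85 ± 2.16 CPM on the AhR-poor diet (4.84, SE 0.57, adjusted p = 6.52e-06). On the I3C diet its group mean with papain was at least 4.02-fold higher, against a floor of 3 counts per library. Its counts there were 4, 5, 18 and 23 in T106, T113, T114 and T115, so the lower of these lay near the floor. The call was lost without T103, T104, T108, T109, T110, T114 or T115 (adjusted p of up to 0.0349), with T100 and T108 both left out (0.0235) and when genes with a single count were tested too (0.0137). Sele, an adhesion molecule of activated endothelium, was the 1 gene of these lists called between the diets with vehicle, at 3.04 ± 0.664 CPM on the AhR-poor and 0.153 ± 0.149 CPM on the I3C diet (4.24, SE 0.50, adjusted p = 0.00011), and in papain-injected mice the same contrast, of the group mean against the floor, was at least 70.9-fold. The 8 endothelial markers were all called higher on the AhR-poor diet in these 2 comparisons, and their part in Sele was not tested.

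**Figure D5:**
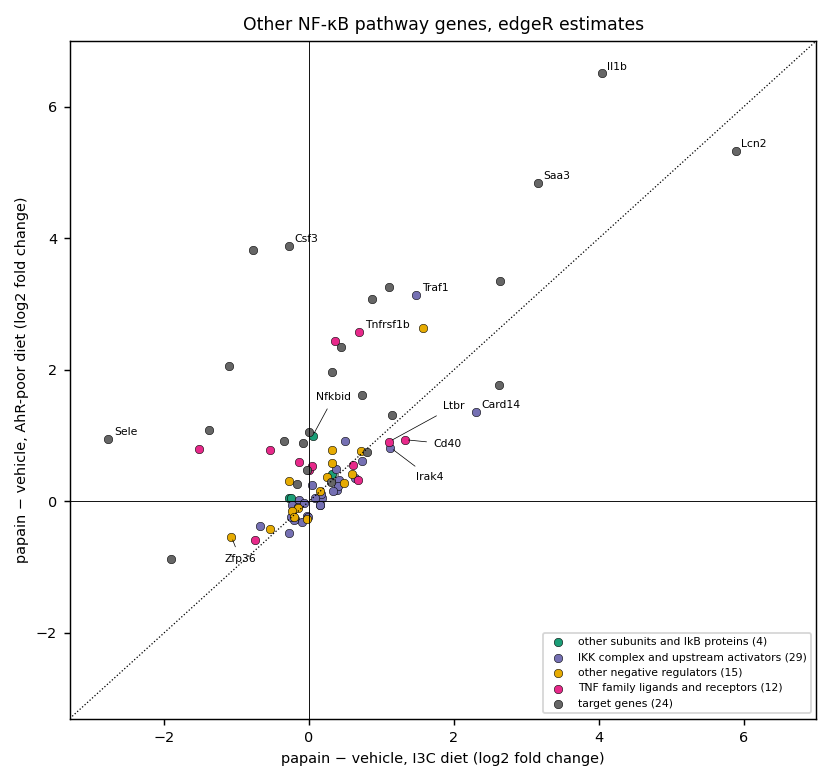
Log2 fold change with papain on the I3C diet (x axis) and on the AhR-poor diet (y axis) for 84 other NF-kB pathway genes, coloured by list, with a dotted line where both are equal. Values are edgeR estimates, which for genes at the detection floor such as Sele and Saa3 depend on the prior count. Lcn2 and Card14 lie below the line, and Il1b, Csf3 and Traf1 lie above it.

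The genes whose log2 CPM ran most like each member over the 16 libraries differed from member to member. The search covered 13014 genes, each with a mean of at least 1 CPM. For Nfkbie they were Cd93, Tnfrsf1b and Ccrl2 (r = 0.98 each), and for Tnf they were Plaur, Ifi205 and Lrrc8c (r = 0.95). For Bcl3 they were Hnrnpc (0.98), Epgn (0.97) and Ppid (0.97). Nfkbia ran most like Cxcl10 (0.93), Pim1 (0.91) and Btg1 (0.89), and Nfkbiz like Zfand5 (0.93), Ifrd1 (0.91) and Tgif1 (0.91). Tnfaip3 ran most like Mir1938 (0.93), Pde4b (0.92) and Fam43a (0.91), and Zc3h12a like Fosl2 (0.93), Rel (0.93) and Zbtb2 (0.91). Nfkb1 ran most like Osbpl8 (0.95), Dimt1 (0.95) and Ehd4 (0.94), Nfkb2 like Ube2d3, Ccdc86 and Slc20a1 (0.94 each), and Relb like Pde4b (0.94), Txnrd1 (0.91) and Helz2 (0.91). Pde4b thus appeared for 2 members and Rel, itself a subunit, for Zc3h12a. The 16 points share groups and libraries, and the values are descriptions.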

How the data were processed

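RNA of footpad epidermal cells was sequenced by the authors from TruSeq Stranded mRNA libraries, aligned with STAR to mm10 and deposited as 1 table of raw counts per gene for 16 libraries. The counter, the annotation and the strand setting are not given in the sources used here. No column was left unused (0). The libraries were run in 3 sequencing units, which the labels do not tie to libraries, so unit effects could not be examined. Gene symbols and positions came from GENCODE M21 for GRCm38, which matched 50376 of the 50600 identifiers, and promoter sequences came from RefSeq.

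All genes that reached 10 counts over the 16 libraries were fitted with edgeR 4.0.16 in R 4.3.3 (TMM factors, robust quasi-likelihood F test, 1 mean per group, all 16 libraries), with Benjamini-Hochberg adjustment over the 22155 genes tested. CPM were computed from the deposited counts, and log2 CPM used a prior count of 0.5. The standard error was the log2 fold change divided by the square root of F. The scripts were tested on simulated data. Library totals of 22500821 to 51844375 put 3 counts, used as the floor, at 0.0569 to 0.13 CPM. PCR copies were not marked, so the floor covers counting error only. No 2 replicates of a group were duplicates, since the chi-square of their counts divided by its degrees of freedom was 9.43 or more. The replicates are separate mice, as far as the labels tell.

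The members and all lists were chosen with earlier results of these data known. The genes named are all 10 members and, of the 84 other pathway genes, the genes called in a comparison between groups with a mean of at least 1 CPM (at most 3 per list and comparison, by absolute log2 fold change) and 9 taken whatever their values (Rela, Rel, Ikbkb, Chuk, Ikbkg, Map3k14, Tnfrsf1a, Tnip1 and Birc3). Tnip3, which lies below 1 CPM, was added because it was called higher among the other negative regulators. For likeness, the 3 genes with the highest Pearson r of log2 CPM were taken for each member. Alternatives were DESeq2 1.42.0, other scalings, filters, thresholds and fits, and leaving out each library. Leaving out T100 and T108 together, the correlations without T108 and T112, and the neutrophil sum without S100a8 and S100a9 were chosen after seeing the data.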

Additional observations from a re-analysis of the deposited data

Results flagged for a closer look

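Relb in the I3C vehicle library T108 stood far from the other libraries of its group, at 44.9 CPM where the next was 31.3 CPM. On the log2 CPM scale the gap was 0.836 of the whole range of the 4 libraries, above the critical value of Dixon's test at the 95% level. Of the 40 combinations of a member and a group this was the 1 that passed, and chance alone marks about 1 in 20.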

How the results depend on the processing

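Over the settings tried, the members kept direction and call in 758 of 800 values with 1 library left out and in 419 of 440 values under other settings. No paired analysis was possible because the library codes are not shared between groups. With no minimum fold change, 5 members were called higher with papain on the AhR-poor diet, and of the pathway genes 37 were higher and 4 lower there, 23 higher and 5 lower on the I3C diet, and 4 lower on the AhR-poor diet with papain. DESeq2 called 4 pathway genes lower with papain on the I3C diet, 5 higher between the diets with vehicle, and 1 member and 4 pathway genes for the interaction, and gave -0.00166 for Tnfaip3 between the diets with vehicle (RLE factors gave -0.00168). At an adjusted p below 0.05, 5 pathway genes were lower with papain on the I3C diet and 3 higher between the diets with vehicle. With every gene of at least 1 count, 2 pathway genes were higher between the diets with vehicle and 1 member was with papain, and with only the libraries compared these counts were 4 and 0. Scaling by library size alone moved the median of all genes between the diets with papain from 0.010 to 0.115, and gave 0.0318 for Nfkb1 and 0.0553 for Nfkb2 there, 0.0279 for Nfkb1 in the interaction, and 0.0510 for Nfkbia, 0.00396 for Nfkb1 and 0.0041 for Relb between the diets with vehicle. With T100 and T108 both left out, Nfkbia was 0.14 and Nfkbiz 0.10 with papain on the I3C diet, and Nfkb1 was 0.0290 and Relb 0.00382 between the diets with vehicle.

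With 1 library left out, values near 0 changed sign. With papain, Zc3h12a ran from -0.0719 (without T101) to 0.15 on the AhR-poor diet, and Nfkbia from -0.11 to 0.15 and Nfkbiz from -0.30 to 0.11 (both without T108) on the I3C diet. Between the diets with vehicle, Nfkbia ran from -0.18 to 0.17, Tnfaip3 from -0.22 to 0.45, Zc3h12a from -0.38 to 0.0108, Nfkb1 from -0.12 to 0.0167 and Relb from -0.15 to 0.12, each highest without T108. With papain Nfkb2 ran from -0.11 to 0.0116 (without T112), and in the interaction Tnfaip3 ran from -0.14 (without T108) to 0.54 and Nfkb1 from -0.10 to 0.0504. The count of members higher with papain on the I3C diet ran from 1 (without T109 or T111) to 3 (without T108), that between the diets with papain from 1 to 2, and that of the interaction from 0 to 1 (without T112). The count of pathway genes ran from 5 (without T109) to 11 with papain on the I3C diet, from 1 to 3 (without T111 or T112) and from 13 (without T105, T114 or T115) to 22 between the diets with vehicle and with papain, and from 0 to 1 (without T112) in the interaction. The causes were not tested. Depth limited genes near 3 counts per library, such as Sele and Saa3 on the I3C diet, and no member.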
